A study of Homo sapiens with 15 samples.

Results

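The genes described here encode the proteins of the Sm ring and the factors that load it onto small nuclear RNA (snRNA). They were chosen by symbol: the 7 ring proteins SNRPB, SNRPD1, SNRPD2, SNRPD3, SNRPE, SNRPF and SNRPG, the methyltransferase PRMT5, its partner WDR77, and the assembly chaperone CLNS1A. These are 10 of the 21519 genes counted, and 255 of the 721551 splicing events tabulated carry one of their names. Poly(A) RNA came from HEK-293, an established human embryonic kidney cell line, either left untreated (control) or given a plasmid for GEMIN5 expression with a lipid reagent and harvested 24 h later. Each lysate gave a cytoplasmic sample (Input), and polysomes were collected from a sucrose gradient after cycloheximide had stopped elongation. The control gave 4 libraries of each fraction, and the GEMIN5 cells gave 3 Input and 4 Polysome libraries. The untreated cells received no plasmid and no reagent, so every GEMIN5 comparison also sets transfected against untransfected cells. Nothing states that the libraries of a group came from separate cultures, so the p-values below cover only the spread among these libraries, which may be technical.

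Sm proteins form a ring around a short uridine-rich site of spliceosomal snRNAs, and the finished particle is the core of the splicing machinery. PRMT5 with WDR77 methylates arginines in SmB, SmD1 and SmD3, while CLNS1A, also called pICln, holds Sm proteins in an intermediate that cannot close. The survival of motor neuron (SMN) complex then takes the proteins over and closes the ring on RNA that GEMIN5 has recognised. The ring is built from the pairs D1 and D2, and B and D3, and the trio E, F and G, and the results follow these units.

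Gene counts summed to 11191417 to 18407933 per library, and 12197 genes entered the tests, all 10 members among them. GEMIN5 rose from 13.9 ± 1.71 to 1428 ± 112 CPM (gene counts scaled to a common library total with the trimmed mean of M values, TMM; SD, n = 4 and n = 3) in Input and from 5.80 ± 1.26 to 924 ± 187 CPM (n = 4 and n = 4) in polysomes, with plasmid and cellular transcripts not told apart. Of 5 markers of HEK-293 cells, VIM, NEFL, NEFM and INA had counts in every library, and PAX2 was at 0 in 1 Input GEMIN5 library. The Input GEMIN5 libraries stood apart from the rest: ribosomal protein genes took 54.9% to 59.6% of their counts, against 33.9% to 35.1% in Input control. A measure of read position, the log2 ratio of spliced reads near the 3′ end to those far from it over 249 genes, was 1.77 to 1.93 there and 0.558 to 0.717 in Input control. With 4 against 3 libraries, the exact two-sided permutation p of both was 0.0571, the smallest possible (0.114 adjusted over 10 tests). In polysomes the same 2 measures overlapped between control and GEMIN5 (exact two-sided permutation p = 0.914 and 0.371; 0.914 and 0.531 adjusted over the same 10 tests). The 19 liver markers summed to 106 to 187 CPM in all Polysome control libraries and to 119 and 109 CPM in Input control 3 and 4, and to 3.66 CPM or less in the others. ALB, which defines that list, was at 0 in Input control 1 and 2 and in all 3 Input GEMIN5 libraries. Leaving out Input control 3 and 4 changed no call on the members. All Polysome control libraries hold the liver markers, so in polysomes their presence cannot be told apart from the group. Of 7 blood markers 5 were lower in Polysome GEMIN5 than in Polysome control and 0 higher (edgeR adjusted p under 0.05), beside 0.402% of all genes called. Whether the ribosomal protein share and the read position contribute to the Input results below was not tested.

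In Input, GEMIN5 cells had more of 6 Sm messages and less CLNS1A message per TMM-scaled total, whereas none of the 10 members passed the test between the polysome groups. In edgeR's quasi-likelihood test, with p-values adjusted over all tested genes after Benjamini and Hochberg, 6 members rose and 1 fell in Input, which became 4 higher and 5 lower with library size as the only scaling, and 4 higher and 4 lower with factors from short transcripts. With TMM, all genes gave 51.5% called in either direction, 27.1% higher and 24.3% lower. The share of all genes called under the other 2 scalings is not given here, so their counts have no background beside them. The median log2 fold change was 1.92 over the 6 Sm genes with usable counts and -0.01 over all tested genes. It was 1.00 over all 10 members, and 1.11 over the 9 without SNRPD3, whose count row is nearly empty. In polysomes 0 of 10 members passed, 0 had an unadjusted p under 0.05, DESeq2 called 0, and 0.402% of all genes were called. In bulk RNA such as this, fewer cells of a type and less RNA per cell cannot be told apart.

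These directions depend on how the libraries are scaled. TMM gave the Input GEMIN5 libraries factors of 0.354 to 0.488 and put the median of all genes at -0.01. Scaling by library size alone put it at -1.29, and TMM factors taken only from 1701 genes with transcripts under 1500 nt put it at -0.99. Measured from the median of all genes, SNRPB lay 0.90, 0.86 and 0.87 higher under the 3 scalings in that order, SNRPD1 1.12, 1.11 and 1.11, SNRPG 2.52, 2.48 and 2.49, and CLNS1A fell by 0.71, 0.69 and 0.70. The distance of a member from the median gene moved by 0.04 or less for these 4 genes. A scaling factor shifts all genes by nearly the same amount, so this distance is nearly fixed by construction and is no check on the scaling. The sign of the raw value did not hold for every one of them: SNRPB turned to -0.43 with library size alone and -0.12 with the short-transcript factors, and SNRPD1 to -0.18 with library size alone.

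**Figure D1:**
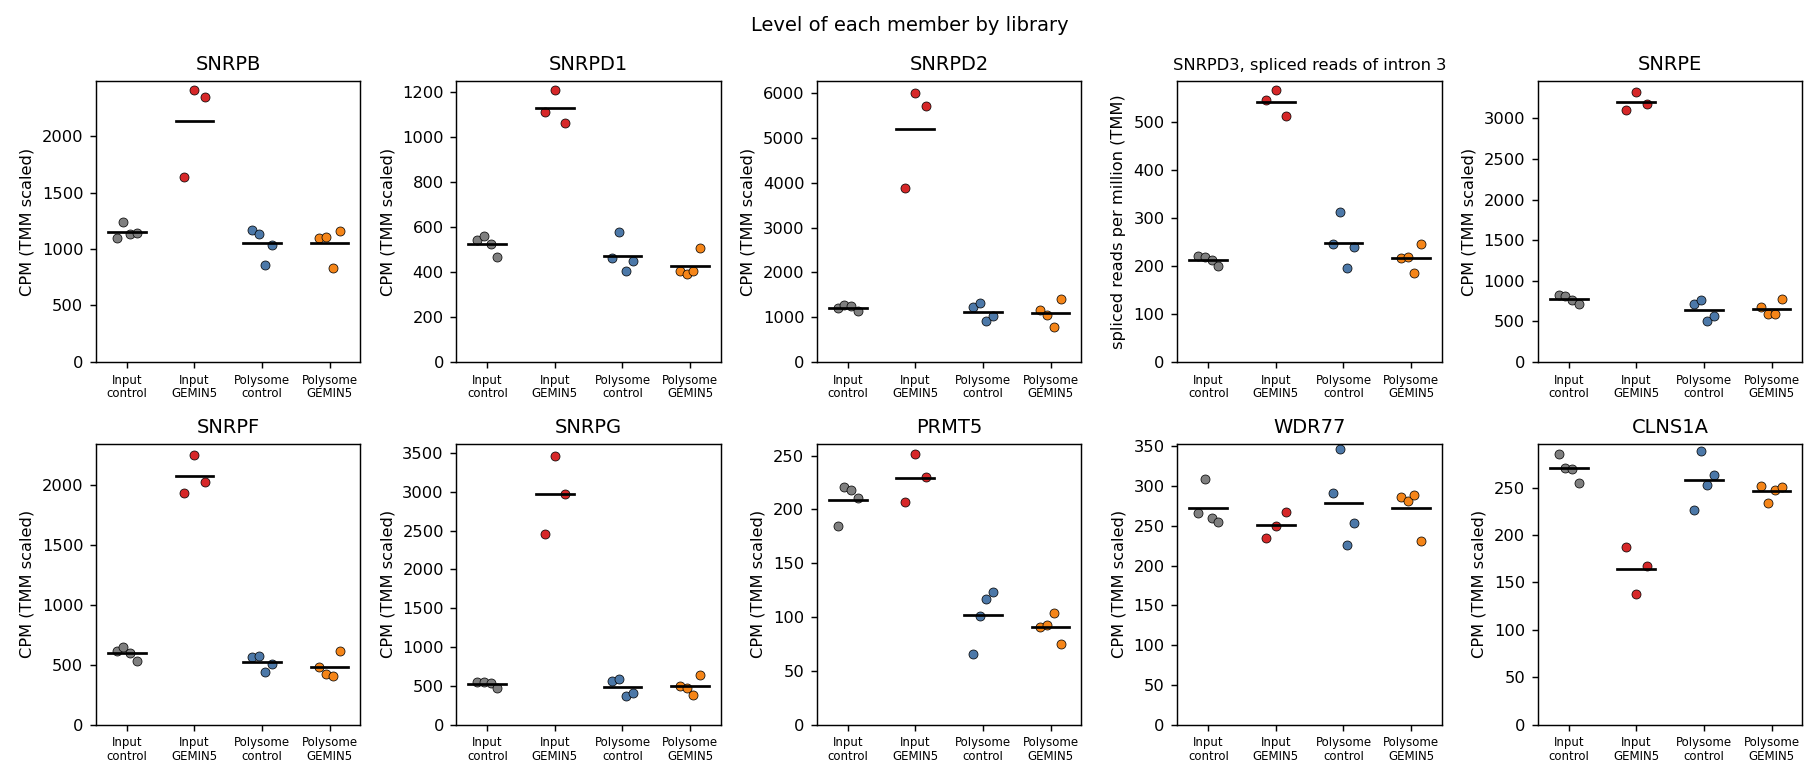
Level of each member in each library (points) with the group mean (line), in CPM scaled by TMM, and for SNRPD3 in spliced CPM of its intron 3. The 3 Input GEMIN5 libraries lie above all 4 Input control libraries for the 7 Sm genes. They lie below them for CLNS1A and overlap them for PRMT5 and WDR77. How many of all genes do not overlap in this way was not counted. SNRPB and SNRPD1 lose this direction, and SNRPB is lower, when libraries are scaled by size alone. SNRPD3 intron 3 turns to a log2 change of -0.41 with totals of spliced reads as the only scaling.

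SNRPB encodes SmB and SmB′, which differ at their C-terminal end through a choice of acceptor in the last intron. Its mRNA can also take up an alternative exon with a premature stop codon, a known target of SmB/B′ autoregulation. The sequences below, read from GENCODE transcripts (GRCh38, chromosome 20, minus strand), are shown because both splice choices were measured in every library. The first is the coding part of the 124-nt exon at chr20:2467192-2467315, which is exon 3 of transcript SNRPB-203, with its stop codon in capitals. The other 2 are the coding ends of the SmB and SmB′ mRNAs, which share 24 bases of the exon before (chr20:2462636-2462659), with the bases after the last junction in capitals up to and with the stop codon.
SNRPB 124-nt exon, coding part (chr20:2467258-2467315): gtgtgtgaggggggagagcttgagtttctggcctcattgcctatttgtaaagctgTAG
SmB end, transcript SNRPB-201 (capitals at chr20:2461929-2461939): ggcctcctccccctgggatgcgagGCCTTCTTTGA
SmB′ end, transcript SNRPB-202 (capitals at chr20:2461756-2461793): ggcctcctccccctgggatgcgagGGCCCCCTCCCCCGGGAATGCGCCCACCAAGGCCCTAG
The SmB reading frame closes 11 bases past the junction and that of SmB′ closes 38 bases past it.

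SNRPB (ENSG00000125835, chr20:2461634-2470853) read 1094, 1242, 1134 and 1141 CPM in Input control and 1641, 2411 and 2349 CPM in Input GEMIN5. In polysomes it read 1169, 1136, 861 and 1035 CPM in control and 1101, 1106, 834 and 1158 CPM with GEMIN5. The Input groups did not overlap, with Input GEMIN5 1 the lowest of its group, and the polysome groups did. The Input means of 1153 ± 63.1 and 2134 ± 428 CPM (SD, n = 4 and n = 3) differed by 0.89 on the log2 scale (SE 0.16, edgeR adjusted p = 1.40e-04), which was 0.55 (adjusted p = 0.0449) without Input GEMIN5 2 and changed sign under both other scalings. In polysomes it was 0.00 (SE 0.15, adjusted p = 1.00), and the difference between the 2 effects was -0.89 (SE 0.22, adjusted p = 0.00374), a call lost without Input GEMIN5 2 (-0.56, adjusted p = 0.141) and of opposite sign with library size alone (0.43) and with the short-transcript factors (0.10).

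The 124-nt exon was included in few SNRPB transcripts. Its percent spliced in (PSI), the share of reads that include it, was 0.15, 0.22, 0.29 and 0.27 in Input control and 1.85, 2.41 and 1.77 in Input GEMIN5. In polysomes PSI was 0.15, 0.07, 0.17 and 0.10 in control and 0.20, 0.26, 0.21 and 0.18 with GEMIN5. The 3 Input GEMIN5 libraries thus stood apart from the other 12, which all lay under 0.30. Behind these values were 56.9 to 71.6 corrected inclusion reads per Input GEMIN5 library and 3.46 to 12.5 in any other, of 2971 to 5263 reads in all. On the log2 odds scale the groups differed by 3.10 in Input (SE 0.39) and by 0.80 in polysomes (SE 0.36), and these effects by -2.30 (SE 0.53). The exon passed the filter on PSI only when its range was widened, after the values had been seen, to events reaching 1 in some library and 99 or less in some library, and it reached 1 only in the 3 Input GEMIN5 libraries. Its values are therefore a description, and no p-value is given as support.

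The SmB′ acceptor was used in 25.92%, 24.27%, 23.03% and 23.45% of SNRPB transcripts in Input control and in 29.11%, 29.61% and 28.01% in Input GEMIN5. In polysomes the shares were 24.7%, 23.4%, 21.2% and 21.4% in control and 25.2%, 26.1%, 25.2% and 25.3% with GEMIN5, over 2435 to 4523 reads per library. Neither pair of groups overlapped, and GEMIN5 had the higher shares in both fractions, but no limma test passed: the log2 odds differed by 0.35 in Input (SE 0.20, adjusted p = 0.294) and by 0.22 in polysomes (SE 0.19, adjusted p = 0.973).

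**Figure D2:**
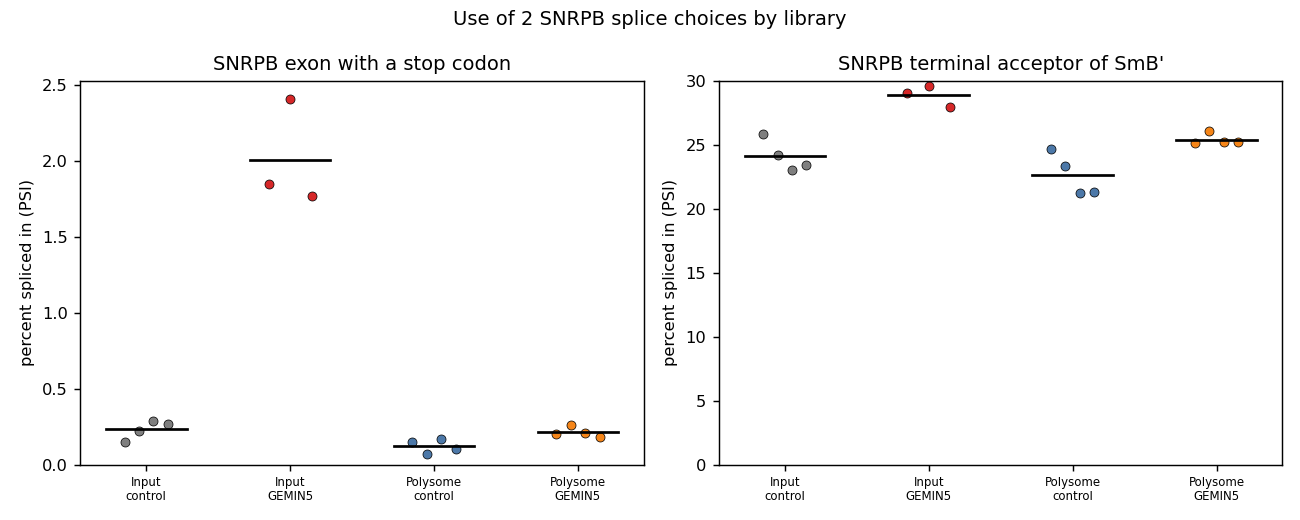
PSI in each library (points; line, group mean) of the SNRPB 124-nt exon with a stop codon, left, and of the acceptor that makes SmB′, right, each axis from 0. The exon lies at 1.77 to 2.41 in Input GEMIN5 and under 0.30 elsewhere, while the SmB′ acceptor stays between 21.2 and 29.6 in all libraries.

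SNRPD3, the partner of SmB in the ring, is nearly empty in the count table: its row (ENSG00000100028, chr22:24555958-24582052) holds 2 to 15 reads per library. Another gene of the annotation, ENSG00000286070, overlaps it on the same strand over 26046 nt and has 0 to 3 counts. The splicing table, in contrast, holds 2310 to 5019 reads across each SNRPD3 intron in each library, so the spliced reads of single introns (scaled as CPM and called spliced CPM here) were tested by the same edgeR fit over 53822 introns. Intron 3 (chr22:24568177-24571915) had 222, 218, 213 and 200.3 spliced CPM in Input control and 547, 567 and 513 in Input GEMIN5. In polysomes it had 247, 312, 197 and 240.1 in control and 216, 218, 186 and 247 with GEMIN5. The Input groups did not overlap and the polysome groups did. The Input change was 1.35 (SE 0.16, adjusted p = 1.69e-08), and it was 1.10 at intron 1 and 1.20 at intron 2. These values turn negative (-0.41 at intron 3, -0.65 at intron 1) with totals of spliced reads as the only scaling, which puts the median of all introns at -2.09 in place of -0.37. In polysomes intron 3 changed by -0.20 (SE 0.15, adjusted p = 0.993), and the difference between fractions was -1.55 (SE 0.22, adjusted p = 1.33e-06), or 0.22 with totals only. The count row itself gave -0.98 (SE 0.56, adjusted p = 0.150) in Input, on 2 or 3 reads in each GEMIN5 library.

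SmD1 and SmD2 are bound by CLNS1A early in assembly. SNRPD1 (ENSG00000167088) read 544, 559, 526 and 469 CPM in Input control and 1114, 1209 and 1065 CPM in Input GEMIN5, and SmD1 carries arginines that PRMT5 methylates. In polysomes SNRPD1 read 461, 579, 402 and 448 CPM in control and 406, 392, 403 and 508 CPM with GEMIN5. All Input GEMIN5 values were above all other values of this gene. The Input change of 1.11 (SE 0.14, edgeR adjusted p = 3.07e-06) kept its sign with the short-transcript factors (0.12, adjusted p = 0.304) but not with library size alone. The polysome change was -0.15, and the difference between them -1.25 (SE 0.19, adjusted p = 6.37e-05), with the opposite sign, 0.04, when scaled by library size alone.

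SNRPD2 (ENSG00000125743) spanned the widest range of CPM within a group among the Sm genes: 1202, 1270.0, 1249 and 1138 CPM in Input control against 3881, 6011 and 5725 CPM in Input GEMIN5. Its polysome values were 1232, 1319, 912 and 1032 CPM in control and 1160, 1043, 773 and 1402 CPM with GEMIN5. The lowest Input GEMIN5 library, number 1, was the lowest of its group for SNRPB, SNRPE, SNRPF and SNRPG too, but not for SNRPD1. SNRPD2 rose 4.29-fold in Input (log2 fold change 2.10, SE 0.20, adjusted p = 8.07e-08) and its polysome value was -0.04, so the fractions differed by -2.14 (SE 0.26, adjusted p = 8.05e-06). A neighbour on the other strand, QPCTL, overlaps SNRPD2 by 167 nt and has 98 to 193 counts.

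SmE, SmF and SmG enter assembly as a trio, and with SNRPD2 their messages had the 4 largest Input folds among the members. SNRPE (ENSG00000182004) read 822, 813, 759 and 709 CPM in Input control and 3107, 3320 and 3172 CPM in Input GEMIN5. Its polysome libraries read 719, 768, 499.6 and 567 CPM in control and 673, 592, 586 and 769.5 CPM with GEMIN5. The Input GEMIN5 libraries were close together and at least 3 times every other library of this gene. The Input change was 2.04 (SE 0.16, adjusted p = 1.545e-08), and the fractions differed by -2.01 (SE 0.21, adjusted p = 2.77e-06).

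SNRPF (ENSG00000139343) read 618, 648, 596 and 535 CPM in Input control and 1938, 2256 and 2031 CPM in Input GEMIN5, with 569, 571, 439 and 506 CPM in Polysome control and 482, 419.9, 407 and 614 CPM in Polysome GEMIN5. SNRPG (ENSG00000143977) read 545, 548, 531 and 466 CPM in Input control and 2464, 3467 and 2978 CPM in Input GEMIN5, with 562, 583, 374 and 410.0 CPM in Polysome control and 497, 470.1, 376 and 640.2 CPM in Polysome GEMIN5. For both genes the Input groups did not overlap and the polysome groups did. SNRPF rose by 1.79 on the log2 scale (SE 0.15, adjusted p = 3.56e-08) and SNRPG by 2.51 (SE 0.19, adjusted p = 1.545e-08), which is 5.68-fold and the largest Input change of the members. Their differences between fractions were -1.91 (SE 0.21, adjusted p = 3.23e-06) and -2.47 (SE 0.26, adjusted p = 2.45e-06). The Input change of SNRPD2, SNRPE, SNRPF and SNRPG was 0.78, 0.75, 0.50 and 1.19 with library size alone and 1.09, 1.05, 0.80 and 1.5 with the short-transcript factors, higher under both.

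The 3 loading factors did not move as a group. PRMT5 (ENSG00000100462), the enzyme, read 185, 221, 218 and 210.5 CPM in Input control and 207, 252 and 229.8 CPM in Input GEMIN5, against 65.8, 101, 117 and 123 CPM in Polysome control and 90.6, 92.6, 104 and 75.3 CPM in Polysome GEMIN5. WDR77 (ENSG00000116455), its substrate-binding partner, read 266, 309, 259 and 254 CPM in Input control and 235, 249.6 and 267 CPM in Input GEMIN5, against 291, 347, 226 and 253 CPM and 287, 282, 289 and 230.3 CPM in the polysome groups. Both overlapped between GEMIN5 and control in both fractions. The Input change of PRMT5 was 0.14 (SE 0.17, adjusted p = 0.528) and that of WDR77 -0.12 (SE 0.15, adjusted p = 0.519); with library size alone both were called lower, at -1.17 and -1.41, on a scale where the median gene was at -1.29. WDR77 overlaps ATP5PB, which has 5103 to 12523 counts, by 393 nt on the other strand.

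CLNS1A (ENSG00000074201, chr11:77514936-77637794), the chaperone, was the 1 member that fell. It read 286, 271, 269.5 and 255 CPM in Input control and 187, 138 and 167 CPM in Input GEMIN5, groups that did not overlap. In polysomes it read 226, 289, 253 and 263 CPM in control and 252, 234, 248 and 250.5 CPM with GEMIN5, which overlapped. The Input level fell to 0.608 of control (log2 fold change -0.72, SE 0.13, adjusted p = 1.02e-04). It was -1.98 with library size alone and -1.69 with the short-transcript factors. Both scalings lower the value of nearly every gene in this comparison, so the kept sign is fixed by construction and is no check. The polysome change was -0.07, and the difference between fractions 0.65 (SE 0.17, adjusted p = 0.00528).

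The difference of the GEMIN5 effect between polysomes and Input was negative and past the test for 6 members (the Sm genes without SNRPD3) and positive for CLNS1A. Of all genes, 37.3% were called, 20.5% with a negative difference and 16.9% with a positive one. The median was -1.07 over the 10 members, -1.25 over the 9 without the nearly empty SNRPD3 count row, and -0.01 over all genes. The difference uses the Input libraries of the Input comparison, so it is no separate observation of the Input change.

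In control cells no Sm message passed the test between polysomes and Input. Of the 6 Sm genes with usable counts 0 were called by edgeR and 0 had an unadjusted p under 0.05. Their log2 values lay from -0.28 to -0.11. The nearly empty SNRPD3 count row gave -0.36 and was not called. The spliced reads of the 3 SNRPD3 introns gave 0.17 to 0.22, with 0 called. PRMT5 alone of the 10 members passed, and its polysome libraries all lay below its Input libraries. It was lower in polysomes by a log2 value of -1.04 (SE 0.16, adjusted p = 4.62e-05), from 209 ± 16.3 to 102 ± 25.7 CPM (SD, n = 4 and n = 4). Of all genes 43.2% were called, 24.1% higher and 19.1% lower in polysomes. Measured from the median gene, PRMT5 was at -1.06, -1.05 and -1.03 under TMM, library size alone and the short-transcript factors. Scaling leaves this distance nearly fixed by construction. PRMT5 was called lower under each. No member passed as higher, and 0 had a positive value at an unadjusted p under 0.05. With library size alone, which puts the median gene at 0.54, 7 members were called higher instead, SNRPB among them at 0.38. The share of all genes called under that scaling is not given here.

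In GEMIN5 cells, a comparison that shares the Input GEMIN5 libraries with the Input comparison of GEMIN5 and control, 7 members were lower in polysomes than in Input and 1 was higher, beside 67.6% of all genes called, 35% lower and 32.6% higher. SNRPG was at -2.58, SNRPE at -2.29, SNRPD2 at -2.25, SNRPF at -2.11, SNRPD1 at -1.40, PRMT5 at -1.34 and SNRPB at -1.02, and CLNS1A at 0.58. With library size alone SNRPD1, PRMT5 and SNRPB changed sign, to 0.40, 0.49 and 0.81. WDR77 was at 0.12 (adjusted p = 0.486).

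**Figure D3:**
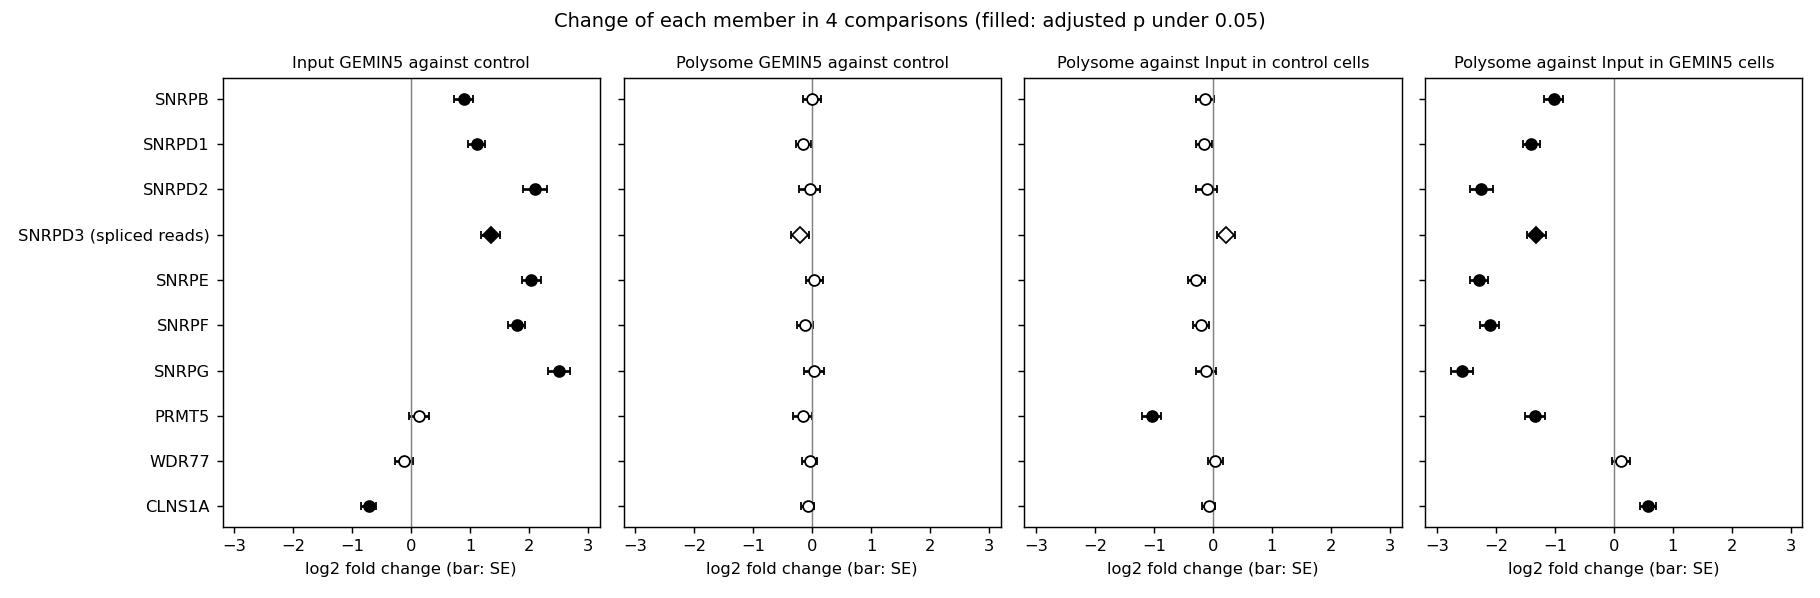
Log2 fold change of each member (point; bar, SE; filled where the adjusted p is under 0.05) in 4 comparisons with TMM scaling; SNRPD3 is shown by the spliced reads of intron 3. The Sm genes lie at 0.89 to 2.51 in Input and near 0 in polysomes, and in control cells PRMT5 alone is called between fractions. With library size alone SNRPB and SNRPD1 turn negative in Input, as does SNRPD3 intron 3 (-0.41) with totals of spliced reads only.

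Spliced reads give the same members a second readout from the same libraries, and one that has a position along the transcript. Introns of 1 transcript share molecules, so neither this readout nor its introns are separate observations. Of 55 introns of the 10 principal transcripts 52 entered the test. In Input 26 were higher and 13 lower with GEMIN5, against 50.6% of all introns called, 22.2% higher and 28.4% lower, and a median of -0.37 over all introns. All introns of the Sm genes rose: 6 of SNRPB by 0.83 to 1.17, 3 of SNRPD1 by 1.35 to 1.47, 2 of SNRPD2 by 2.26 to 2.36, 4 of SNRPE by 2.24 to 2.35, 3 of SNRPF by 2.01 to 2.10, 3 of SNRPG by 2.72 to 2.84 and the 3 of SNRPD3, where totals of spliced reads as the only scaling turn SNRPB, SNRPD1 and SNRPD3 negative at the introns nearest each end. In polysomes 0 of 52 passed, 0 had an unadjusted p under 0.05, and 0.113% of all introns were called. The difference between fractions was negative for 26 introns and positive for 9, with 38.3% of all introns called, 17.8% and 20.5% in these directions. Between fractions in control cells 13 introns were lower in polysomes, all of PRMT5, with 20.8% of all called, 10.9% lower and 9.87% higher. With totals of spliced reads as the only scaling, the end introns of PRMT5 did not pass in control cells (5′ -0.84, adjusted p = 0.0558; 3′ -0.23, adjusted p = 0.303), and end introns of other members were called higher, among them the 3′-most of SNRPB (0.56, edgeR adjusted p = 1.47e-04). In GEMIN5 cells 29 were lower and 5 higher, with 56.3% of all called, 24.8% lower and 31.5% higher.

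Within PRMT5 the Input change ran from lower to higher along the transcript. Its 13 tested introns, numbers 4 to 16 counted from the 5′ end, gave log2 changes of -1.26, -1.31, -1.30, -1.54, -1.38, -1.29, -0.65, -0.72, -0.41, -0.10, 0.23, 1.02 and 1.16, from 1857 nt to 546 nt before the 3′ end. Of these 8 were called lower and 2 higher, while the gene count as a whole did not pass. Intron 4 (chr14:22926815-22927525) had 10.2, 14.5, 12.0 and 13.1 spliced CPM in Input control and 5.01, 5.32 and 5.32 in Input GEMIN5. Intron 16 (chr14:22921057-22922175) had 11.8, 12.6, 10.9 and 12.6 in Input control and 27.4, 27.9 and 24.8 in Input GEMIN5. At both introns the Input groups did not overlap, in opposite directions (-1.26, SE 0.31, adjusted p = 0.00167, and 1.16, SE 0.18, adjusted p = 1.24e-06). With totals of spliced reads only intron 16 was at -0.60, above the median intron at -2.09.

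In polysomes PRMT5 showed no such course. Intron 4 had 2.61, 4.79, 7.52 and 5.34 spliced CPM in control and 4.81, 4.66, 7.22 and 2.19 with GEMIN5, and intron 16 had 5.40, 8.50, 7.77 and 8.90 in control and 6.89, 5.55, 5.96 and 7.39 with GEMIN5. Both overlapped, and the polysome changes of all 13 introns lay between -0.26 and 0.26. Between fractions in control cells the 13 introns were lower in polysomes by values of -1.28 to -0.61, along the tested length of the transcript. The counts behind PRMT5 introns were 8 to 314 reads per library. The difference of the GEMIN5 effect at intron 4, 1.14 (SE 0.41, adjusted p = 0.0302), was lost without any 1 of 6 libraries (adjusted p 0.0589 to 0.0754: Input control 2, the 3 Input GEMIN5 libraries, Polysome control 2 and Polysome GEMIN5 3), and that at intron 16, -1.41 (adjusted p = 2.48e-05), was not lost without any of the 15, though with totals of spliced reads only it was 0.34.

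CLNS1A had the same kind of course over a smaller range. Its 6 introns gave Input changes of -0.88, -0.84, -0.70, -0.54, -0.47 and -0.14 from the 5′ to the 3′ end, 5 of them called lower. The median over all introns was -0.37, so intron 6 lay above the median intron. With totals of spliced reads only intron 6 was at -1.89, also above the median intron at -2.09. Intron 1 (chr11:77629900-77637589) had 27.5, 28.3, 29.1 and 29.7 spliced CPM in Input control and 19.0, 12.8 and 14.7 in Input GEMIN5. Intron 6 (chr11:77616696-77619605) had 34.5, 30.6, 30.3 and 29.4 in Input control and 28.98, 26.82 and 29.06 in Input GEMIN5. The groups were apart at both introns, narrowly at intron 6, where the test did not pass (adjusted p = 0.499). None of the 9 WDR77 introns was called by edgeR in the 5 comparisons, with Input values of -0.27 to 0.30. The log2 ratio of spliced reads near the 3′ end to those far from it, taken over 249 genes, did not overlap between the Input groups and is given above, and its part in these courses was not tested.

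**Figure D4:**
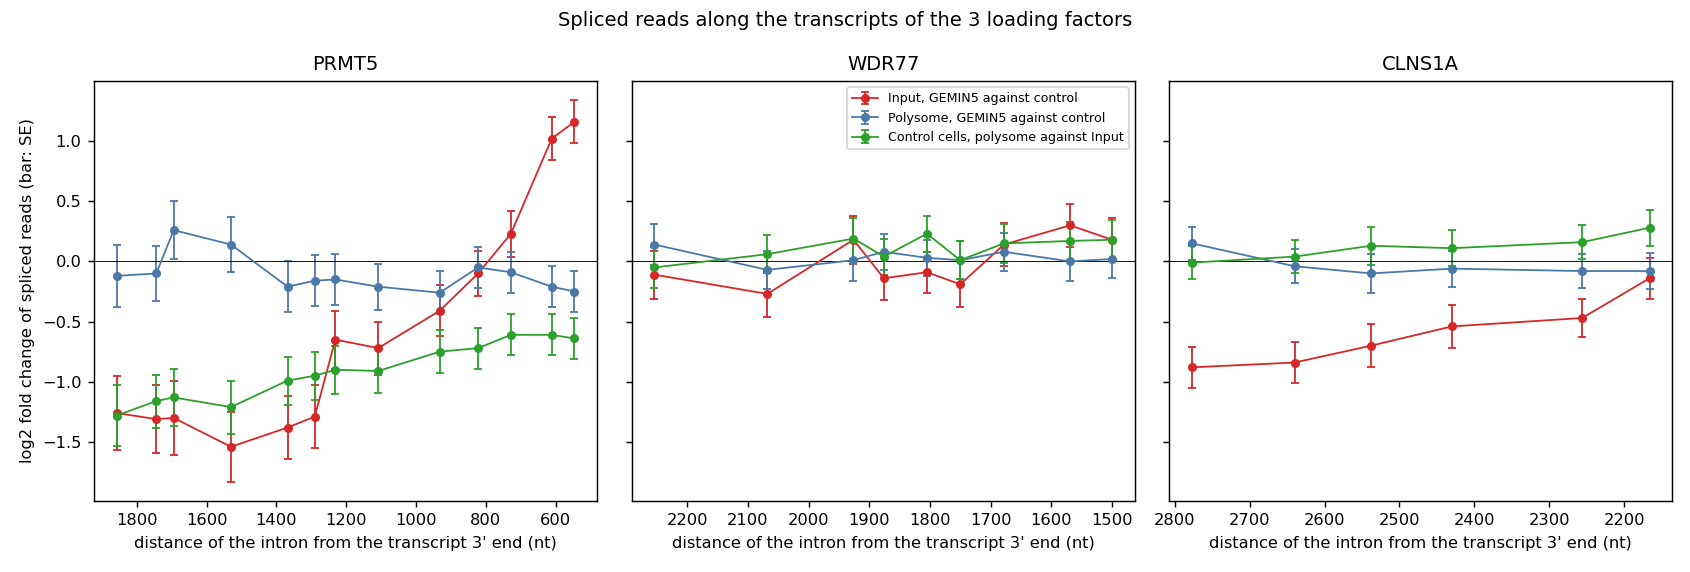
Log2 fold change of spliced reads (bar, SE) at each tested intron of PRMT5, WDR77 and CLNS1A against the distance of the intron from the 3′ end in nt, with the 3′ end to the right. In Input, GEMIN5 against control (red) climbs from -1.26 to 1.16 along PRMT5 and from -0.88 to -0.14 along CLNS1A, while the polysome comparison (blue) stays between -0.26 and 0.26 in all 3 genes.

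Transcript length separated the members as well. The tested genes with principal transcripts under 750 nt had a median Input change of 1.84 (247 genes), those of 750 to 1000 nt 1.33 (333 genes), those of 1000 to 1500 nt 0.65 (933 genes) and those of 2000 to 3000 nt -0.14 (2794 genes), and the polysome medians of these classes lay from 0.00 to 0.02. The Input medians of the other classes were 0.10 at 1500 to 2000 nt, -0.26 at 3000 to 5000 nt and -0.02 at 5000 nt or more. Against genes of its own length class, SNRPB (1154 nt) lay between the quartiles of 0.13 and 1.26. SNRPF (1389 nt, same class), SNRPD2 (901 nt, quartiles 0.77 and 1.85), SNRPE (942 nt) and SNRPG (625 nt, quartiles 1.44 and 2.27) lay above the upper quartile. SNRPD1, whose principal transcript is annotated with 4909 nt, lay above a class with quartiles of -0.83 and 0.30. PRMT5 (2531 nt), WDR77 (2576 nt) and CLNS1A (2993 nt) lay between the quartiles of -0.75 and 0.42. Of the tested genes 99.1% had a length. The part of length in the change of the members was not tested further.

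**Figure D5:**
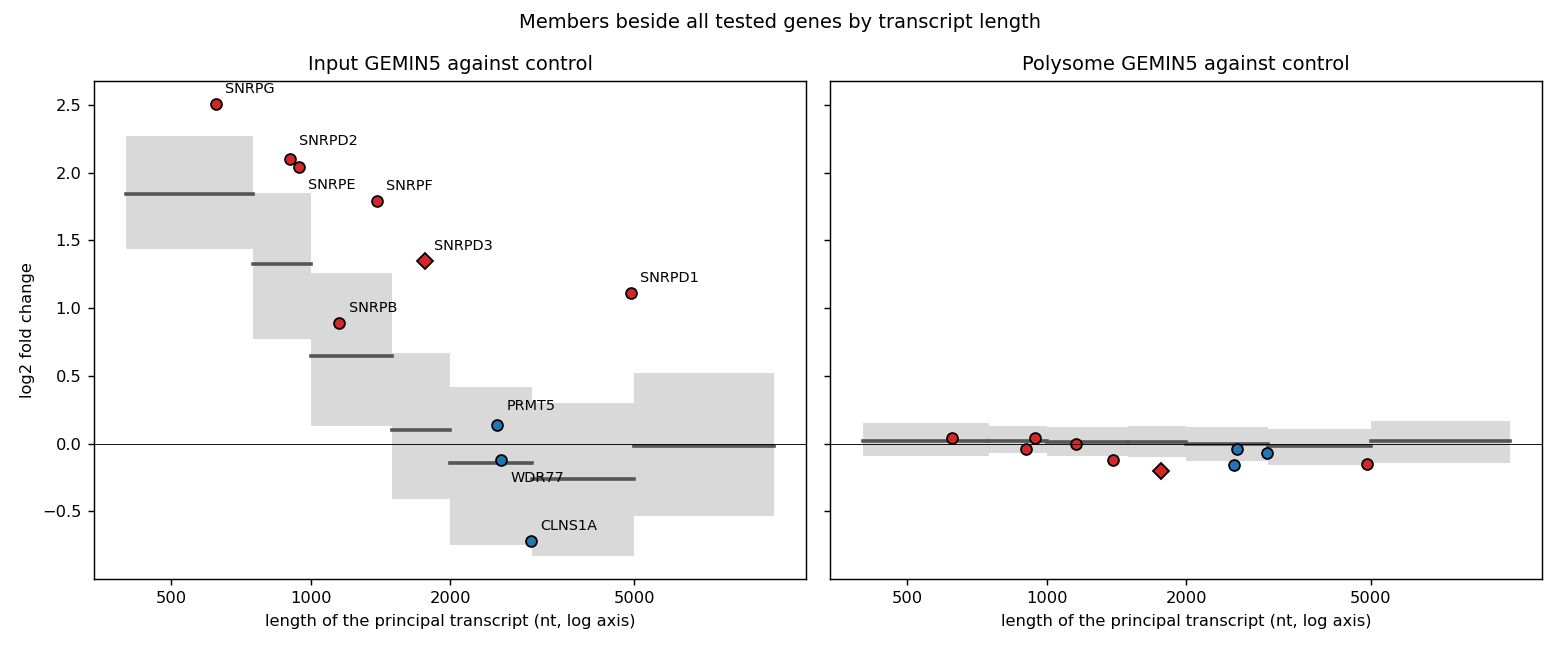
Log2 fold change against transcript length (nt, log axis) for the members (red, Sm; blue, loading factors; diamond, SNRPD3 by spliced reads of intron 3) over the median (line) and quartiles (grey) of all tested genes in 7 length classes, TMM scaled. In Input the class medians go from 1.84 under 750 nt to -0.26 at 3000 to 5000 nt, and the class of 5000 nt or more is at -0.02. The shorter Sm genes lie at or above their classes. SNRPB and SNRPD1 are negative when scaled by library size alone, and SNRPD3 intron 3 (-0.41) with totals of spliced reads only. In polysomes the class medians lie within 0.02 of 0. The diamond comes from the intron fit, where the Input median of all introns is -0.37, so it is not on the scale of the gene classes.

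Per length, the members fell into 2 tiers in Input control. SNRPD2 had 1347 CPM per kb of principal transcript, SNRPB 999, SNRPG 836, SNRPE 824 and SNRPF 432 CPM per kb. SNRPD1 had 107, WDR77 106, CLNS1A 90.3 and PRMT5 82.4 CPM per kb, a place that for SNRPD1 rests on its long annotated transcript. SNRPG and SNRPE overlapped over the 4 libraries, as did SNRPD1 with WDR77 and CLNS1A with PRMT5, while WDR77 and CLNS1A did not. The Sm genes without SNRPD3 followed each other closely over the 15 libraries, with Pearson correlations of log2 CPM from 0.92 to 0.99, as a description of points that share libraries and 3 high Input GEMIN5 values. CLNS1A correlated with them at -0.90 to -0.80, PRMT5 at 0.54 to 0.65 and WDR77 at -0.27 to -0.13. Over the 12 libraries without Input GEMIN5 the 6 Sm genes correlated at 0.62 to 0.94 with each other, and CLNS1A with them at 0.15 to 0.73, PRMT5 at -0.07 to 0.43 and WDR77 at 0.11 to 0.37. The genes most like the mean of the 7 Sm genes were BID, MRPS21 and TXNL4A (each 0.996), C4orf48 (0.995) and DPCD (0.994). With the sparse SNRPD3 row left out, they were RPAIN (0.999), ATP5PF, COX7C, ELOC and ATP5MJ (each 0.998). RPAIN, ATP5PF, COX7C and ATP5MJ were again among the first 5 (0.976 to 0.985) over the 12 libraries without Input GEMIN5, after UFC1 (0.991).

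Few other splice choices of the members could be tested. Where every library had 10 or more corrected reads and PSI reached 5 in some library and 95 or less in some library, 13 event groups remained, and limma called 0 of them in each of the 5 comparisons. At an unadjusted p under 0.05 there were 3 in Input, 1 in polysomes, 2 for the difference between them, 2 between fractions in control cells and 4 in GEMIN5 cells. The share of all events at an unadjusted p is not given here, so these counts have no background and are not read as a result. The shares that follow are of single events at an adjusted p under 0.05. Of all 12697 events 10.2% were called in Input, 0.00788% in polysomes, 1.94% for the difference, 0.0866% between fractions in control cells and 11.7% in GEMIN5 cells.

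SNRPE exon HsaEX0060716 (41 nt, chr1:203862182-203862222) had the widest intermediate use: PSI was 56.7, 58.0, 49.8 and 57.9 in Input control, 64.8, 58.2 and 60.0 in Input GEMIN5, 68.5, 74.2, 63.6 and 65.7 in Polysome control and 70.7, 68.2, 71.3 and 64.6 in Polysome GEMIN5. In control cells the polysome values all lay above the Input values, a log2 odds difference of 0.77 that did not pass (adjusted p = 0.333), and the Input GEMIN5 effect was 0.32 (adjusted p = 0.463). SNRPD3 exon HsaEX0060715 (54 nt, chr22:24567984-24568037) had a PSI of 95.8, 96.3, 96.4 and 96.4 in Input control and 92.4, 93.9 and 94.0 in Input GEMIN5, with 95.5 to 96.5 in all polysome libraries. Its Input groups did not overlap, and the test did not pass (-0.83, adjusted p = 0.174). SNRPD1 acceptor HsaALTA1043266-2/3 was used at a PSI of 3.69, 2.42, 3.02 and 3.38 in Input control and 4.76, 6.91 and 6.60 in Input GEMIN5, over 202 to 357 reads (0.95, adjusted p = 0.0786). A PRMT5 donor, HsaALTD1052382-4/4, stood at 1.45, 4.55, 6.93 and 5.00 in Input control and 21.4, 12.5, 13.2 and 20.8 in Polysome control, over 13 to 132 reads (2.15, adjusted p = 0.107).

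The remaining events named by the rule had no group apart from the others: PRMT5 exon HsaEX0050286 lay at a PSI of 81.8 to 100 in 33 to 277 reads, SNRPE donor HsaALTD1038880-3/4 at 1.00 to 8.53, and SNRPG exon HsaEX1038313 at 0 to 8.82 in 25 to 104 reads. In the wider PSI range 43 event groups of the members entered the test, and 3, 0, 2, 0 and 1 were called in the 5 comparisons, beside 14.4%, 0.0035%, 3.38%, 0.07% and 16.2% of 28589 events. The 3 called in Input were the SNRPB exon, a CLNS1A acceptor (HsaALTA1005865-3/3) and a PRMT5 donor (HsaALTD1052382-3/4). The CLNS1A acceptor reached a PSI of 1 only in Input GEMIN5 3 (1.31) and had 0, 0 and 1.32 inclusion reads in Input GEMIN5 and 0, 0, 0.65 and 0 in Input control. The PRMT5 donor had a PSI of 0 in all 7 Input libraries. The values of both thus reflect the added 0.5 reads on unlike read numbers. These 3 were named after their values were seen, and their calls support nothing here.

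The partners of the ring moved in both directions in Input, where 27.1% of all genes were called higher and 24.3% lower, so that a count such as 1 and 1 of 5 is near or below the share over all genes. Of the SMN complex, which closes the ring, 9 of 10 genes were tested, and 4 rose and 3 fell (median 0.33). After GEMIN5 itself (6.68, SE 0.21), the largest change was that of GEMIN6 at 1.46 (SE 0.15, adjusted p = 2.86e-07). Reads of SMN1 and its near-identical copy SMN2 are uncertain. STRAP, the most abundant per kb in Input control, was at -0.31 (adjusted p = 0.0498). In polysomes 1 of 9 passed, which was GEMIN5.

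Of 5 adaptors of PRMT5 and other arginine methyltransferases 1 rose and 1 fell in Input (median -0.11). COPRS, which binds PRMT5 on chromatin, was at 1.53 (SE 0.19), RIOK1, an adaptor that competes with CLNS1A for PRMT5, at -0.93 (SE 0.22, adjusted p = 0.00149), and PRMT1 at -0.11 (adjusted p = 0.525). Of 9 genes for snRNA cap, export and import 1 rose and 5 fell (median -0.62): TGS1, which hypermethylates the snRNA cap, was at -1.48 (SE 0.30, adjusted p = 3.99e-04), the import receptor KPNB1 at -1.22 (SE 0.36, adjusted p = 0.00868) and RAN at 0.31 (SE 0.13, adjusted p = 0.04995).

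LSM10 and LSM11, which replace SmD1 and SmD2 in the ring of the histone pre-mRNA processing particle U7, rose by 1.98 and 0.86, and SNRPN, the SNRPB paralogue, had 0 to 2 counts per library and was not tested. Of 5 proteins particular to U1 or U2 particles 1 rose and 1 fell (median 0.12), SNRPC at 1.20 (SE 0.15) and SNRNP70 at -1.71 (SE 0.25). All of these values are on the TMM scale, and the shift of the median gene under the other scalings is given above.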

How the data were processed

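Symbols, lists and events were chosen with earlier results of these data known. Samples were grouped by title. Raw gene counts were deposited by the authors, who used STAR 2.7.10a and featureCounts with GRCh38/hg38 per the submitters' processing notes; the kit was stranded per the labels, and no source used here gives the featureCounts version or the use of strand in counting. Per the file headers, the deposited splicing table holds percent spliced in (PSI) per event and library, with corrected inclusion and exclusion reads in a text quality field (unit other, per the file headers); no source used here names its caller. PSI matched the inclusion share to within 0.5 points in 100% of values with 10 or more reads.

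Genes passing filterByExpr were tested over all 15 libraries in 1 fit with edgeR 4.0.16 (R 4.3.3; TMM, robust quasi-likelihood), with calls at an adjusted p under 0.05. SE is the log2 fold change divided by the square root of F. Spliced reads of introns of 1 principal transcript per gene (GENCODE, GRCh38) were tested likewise, a readout added after the SNRPD3 row was seen to be nearly empty, and CPM per kb uses the same transcripts. Events were tested with limma 3.58.1 on log2 odds with 0.5 reads added, over events of all types. DESeq2 1.42.0, other scalings, filters and left-out libraries were alternatives. Library measures were compared by exact permutation (SciPy 1.17.1, Python 3.11.15). The gene test and the event test were first run on simulated counts with known changes in the Input comparison. The simulation had no shift of scaling like that of the Input GEMIN5 libraries. The other comparisons, the intron fit and the permutation test were not simulated. Each lysate gave both fractions, and weak correlations cannot show whether replicate numbers pair the libraries. Between fractions, same-number correlations of deviations were -0.13 to 0.28 in control cells and -0.12 to 0.06 in GEMIN5 cells. Over all pairs of groups they ran from -0.56 to 0.49. The main fit has no block, so it uses no pairing of fractions by lysate, and a replicate block was an alternative.

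Named were all 10 members, GEMIN5, of each list at most the 2 largest Input calls and the most abundant gene, the 5 genes most correlated with the mean of the Sm genes, and per gene the 2 tested events of widest PSI range. The likeness without SNRPD3 or Input GEMIN5, the wider PSI range and the events found in it were added after values were seen. Depth was 11191417 to 18407933 counts per library. PCR copies are not independent molecules, so the read numbers overstate precision.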

Additional observations from a re-analysis of the deposited data

Results flagged for a closer look

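The GEMIN5 effect differed between fractions by the test of the difference itself (edgeR, adjusted p under 0.05) for SNRPB (-0.89), SNRPD1 (-1.25), SNRPD2 (-2.14), SNRPE (-2.01), SNRPF (-1.91), SNRPG (-2.47) and CLNS1A (0.65) on the log2 scale. It differed for the spliced reads of SNRPD3 introns 1, 2 and 3 (-1.31, -1.34 and -1.55) and in opposite directions for PRMT5 introns 4 and 16 (1.14 and -1.41). The inclusion of the SNRPB 124-nt exon differed by -1.69 PSI points (limma adjusted p = 0.0312 on log2 odds), a test that supports nothing because the exon passed the filter only through the Input GEMIN5 libraries, in a range widened after its values were seen; it missed the threshold with the replicate block and without any 1 of 8 libraries (adjusted p 0.0533 to 0.0761). The values for SNRPB, SNRPD1, SNRPD3 and PRMT5 intron 16 change sign with library totals as the only scaling.

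In 16 of 243 groups of 4 libraries 1 library stood far from the other 3, its gap to the nearest passing Dixon's 95% critical share of the range, which chance gives in about 5% of groups. Polysome GEMIN5 4 was high for SNRPD1 (508.2 CPM, others 391.5 to 406) and for the spliced CPM of its introns 2 (175.6, others 134.3 to 139.7) and 3 (238.9, others 175 to 182.1), and low for WDR77 (230.3 CPM, others 281.8 to 288.7) and its intron 9 (37.31, others 44.32 to 44.74). Polysome GEMIN5 3 was low at SNRPB intron 3 (140.7, others 197.7 to 208.9), and Polysome GEMIN5 2 was high at the SmB′ acceptor (PSI 26.1, others 25.15 to 25.28). Input control 1 was low at SNRPB intron 6 (181.9), PRMT5 intron 9 (8.363) and SNRPD3 exon HsaEX0060715 (PSI 95.79). Input control 2 was high at WDR77 intron 8 (36.83), and Input control 3 was high at PRMT5 intron 13 (15.43) and low at SNRPE exon HsaEX0060716 (PSI 49.77). Polysome control 1 was low at PRMT5 exon HsaEX0050286 (PSI 88.09) and high at acceptor HsaALTA0006697-1/2 (10.27), and Polysome control 4 was low at PRMT5 exon HsaEX0050285 (96.58).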

How the results depend on the processing

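DESeq2, RLE scaling, TMM without ribosomal protein and mitochondrial genes, no filter, fits on only the groups compared and 20 reads per event lost no call on a member and reversed none. With the replicate block all counts of members called stayed the same (6 higher and 1 lower in Input, 0 in polysomes). Of 240 results 239 kept their call, the exception being the SNRPB exon difference (-2.28, limma adjusted p = 0.0604). Across pairs of groups 2 of 4, 0 of 3, 2 of 3 and 1 of 4 libraries correlated best with their own number, which does not settle whether the numbers pair. Leaving out 1 library gave 1 to 2 members lower in polysomes in control cells, 5 to 6 with a negative difference, and 0 to 1 events between fractions in GEMIN5 cells. SNRPE joined without Polysome control 2 (-0.38, adjusted p = 0.0425), and PRMT5 exon HsaEX0050289 without Input control 1 (2.06, adjusted p = 0.049). With library size only, members called numbered 4 higher and 5 lower in Input, 4 with a positive and 4 with a negative difference, 7 higher in polysomes in control cells, and 6 higher and 4 lower in GEMIN5 cells. With short-transcript factors they numbered 4 higher and 4 lower in Input, 2 with a positive and 4 with a negative difference, and 2 higher and 5 lower in polysomes in GEMIN5 cells. The shares of all genes called under these 2 scalings are not given here. In the wider PSI range 3 events were called in Input, 2 for the difference and 1 between fractions in GEMIN5 cells, and with 1 read added in place of 0.5, 1 in control cells. Among values called under at least 1 of the scalings compared, signs turned with library size only for SNRPB, SNRPD1 and PRMT5 in Input (-0.43, -0.18, -1.17) and for the difference (0.43, 0.04, 1.00); for SNRPB, SNRPD1, SNRPD2, SNRPF, SNRPG and CLNS1A between fractions in control cells (0.38, 0.36, 0.40, 0.31, 0.39, 0.45); and for SNRPB, SNRPD1, SNRPD3, PRMT5 and GEMIN5 in GEMIN5 cells (0.81, 0.40, 1.59, 0.49, 1.20). With short-transcript factors they turned for SNRPB and PRMT5 in Input (-0.12, -0.86), SNRPB for the difference (0.10), and SNRPB and GEMIN5 between fractions in GEMIN5 cells (0.14, 0.57). Values called under neither also turned: with library size only SNRPD3 and SNRPE in control cells (0.15, 0.22), and with short-transcript factors PRMT5 for the difference (0.67), SNRPD3 in GEMIN5 cells (0.94), and SNRPB, SNRPD1, SNRPD2, SNRPG and CLNS1A in control cells (0.05, 0.03, 0.07, 0.05, 0.13). With totals of spliced reads only (3′-most, then 5′-most tested intron) they turned in Input for SNRPB (-0.60, -0.87), SNRPD1 (-0.28, -0.37), SNRPD3 (-0.41, -0.65), PRMT5 (3′ -0.60) and WDR77 (3′ -1.59). For the difference they turned for SNRPB (0.66, 0.90), SNRPD1 (0.13, 0.26), SNRPD3 (0.22, 0.45), PRMT5 (3′ 0.34) and WDR77 (3′ 1.64). Between fractions they turned in control cells at the 5′-most introns of SNRPB, SNRPE and CLNS1A (0.40, 0.39, 0.41), and in GEMIN5 cells for SNRPB (1.22, 1.30), SNRPD1 (0.53, 0.69), SNRPD2 (5′ 0.00), SNRPD3 (0.84, 1.03), SNRPF (0.00, 0.05) and PRMT5 (0.11, 2.06). These scalings move the median of all genes or introns, by construction of the factors. Depth limits PRMT5 introns, from 8 reads, and the SNRPB exon outside Input GEMIN5, from 3.46 inclusion reads.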
